A study of Homo sapiens with 6 samples.

Results

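Integrins and classical cadherins are the main receptors by which cells hold on to the matrix and to each other. Transcript levels were examined for the 49 protein-coding genes of the count table whose symbol is ITGA or ITGB followed by digits or by D, E, L, M, V or X (with ITGA2B), or CDH followed by digits only. They comprised 18 integrin alpha genes, 8 integrin beta genes and 23 cadherin genes, of 19664 protein-coding genes and 60504 genes in all. The cells were SK-MEL-28, an established human melanoma line, and the assay was bulk RNA-seq. By their labels, cells of 3 libraries carried an empty plasmid vector (EV), and cells of the other 3 carried a plasmid for HDAC8, a class I histone deacetylase. Cells of both groups had been transfected with a lipid reagent and kept under hygromycin. Whether either line was a single clone is not given in the sources used here. The labels call the 3 libraries of each group biological replicates without naming separate transfections, so p-values measure the spread between these libraries, which may be technical.

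An integrin is a pair of an alpha and a beta chain. The alpha chain largely sets which ligand is bound (collagen, laminin, or matrix proteins with the RGD peptide such as fibronectin and vitronectin), and the beta chain links through talin and kindlin to actin. Cadherins bind cadherins of the neighbouring cell through calcium-dependent outer repeats, and their tails hold beta-catenin, p120 catenin and alpha-catenin. In the skin, melanocytes hold on to keratinocytes through E-cadherin (CDH1), and melanoma cells are known to replace it with N-cadherin (CDH2) and to carry integrin alpha V beta 3.

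The libraries held between 20850018 and 29822917 counts, and 3 counts correspond to 0.102 to 0.148 CPM (the count scaled to library size) depending on the library. Such floors cover counting error only, because reads carried no molecular identifiers. HDAC8, the introduced gene, was at 16.6, 15.2 and 11.8 CPM in the libraries labelled EV and at 14.2, 15.2 and 13.5 CPM in those labelled HDAC8. The groups overlapped, and on the log2 scale they differed by -0.024 ± 0.13 (SE, edgeR adjusted p = 0.924). Whether transcripts of the plasmid were counted on this gene is not given in the sources used here. The gene itself thus does not bear out the labels, which no other value used here checks. Were they exchanged, every direction given would turn. Each direction here is that of the libraries labelled HDAC8 (HDAC8 libraries) over those labelled EV (EV libraries). Where 3 values stand together they are replicates 1, 2 and 3, and a pair of such values, or of means, gives the EV libraries first. The line was recognisable as melanocytic, with counts for 10 of 10 melanocyte genes, although TYRP1 was scarce. PMEL was at 92220, 88168 and 102820 counts in the EV libraries and 147237, 105800 and 128535 in the HDAC8 libraries. In a bulk sample, fewer cells of a type and less RNA per cell cannot be told apart. HDAC8 replicate 1 stood apart for a few genes that were scarce elsewhere, with 86 counts of the endothelial gene ERG (0 to 11 in the other libraries).

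Of the 49 genes, 26 had enough counts to be tested (14 alpha, 5 beta and 7 cadherin genes). With edgeR's quasi-likelihood test over all 16195 genes tested, an adjusted p below 0.05 was reached by 8 of these 26 as higher and by 6 as lower, and 12 did not pass. Over all genes tested, 11.1% passed as higher and 11.7% as lower. The study's own fold limit, 0.58 on the log2 scale, served as a second threshold. Past both thresholds 5 genes were higher (ITGA1, ITGA7, ITGA4, CDH2 and CDH8) and 3 were lower (ITGA10, ITGA3 and ITGAX), against 4.07% and 3.45% of all genes tested. The integrins divided evenly at both thresholds, with 3 higher and 3 lower and a median log2 fold change of -0.018 over 19 genes. The 7 tested cadherins held 2 higher and 0 lower, with a median of 0.21. One of these 2, CDH8, met the filter on low counts through the HDAC8 libraries only, so only a rise could be called for it and the 2 lend no weight to a direction of the family. The median over all genes tested was 0.0091. At p alone, 3 cadherins passed as higher and 0 as lower, and with an unadjusted p below 0.05 or with DESeq2 the number of cadherins lower past the fold limit was also 0. Without HDAC8 replicate 1, which stood apart for a few scarce genes, 3 integrins were higher and 2 lower past both thresholds, and 2 cadherins were higher. Over all genes tested, HDAC8 replicate 3 lay farthest from the others of its group. Without it, 2 integrins were higher and 3 lower, and 2 cadherins were higher.

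**Figure D1:**
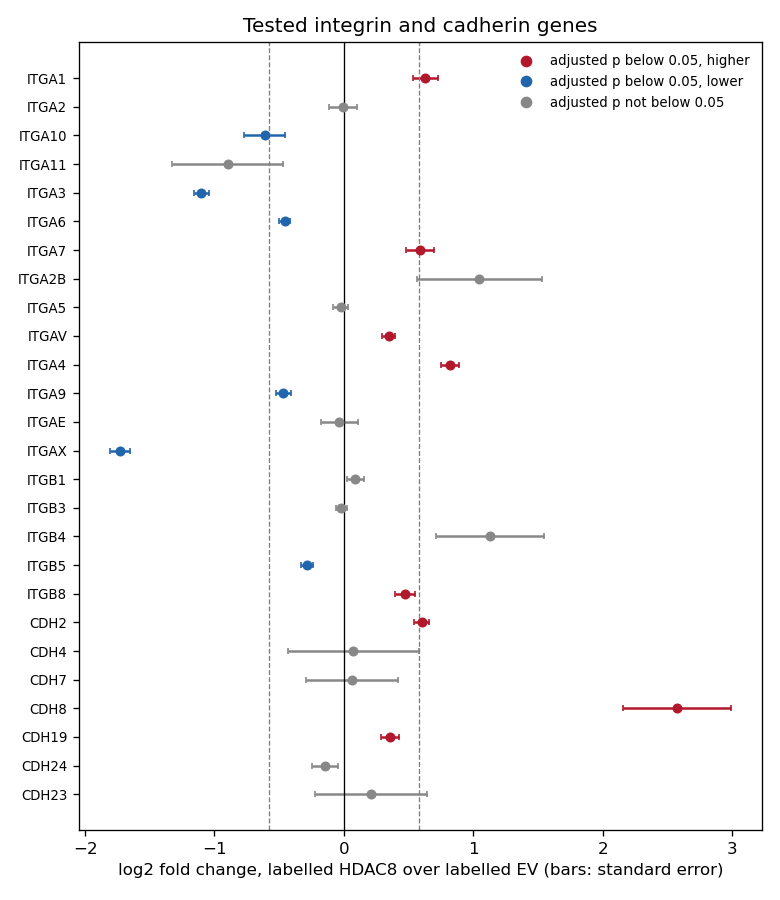
Log2 fold change of the 26 tested integrin and cadherin genes, labelled HDAC8 over labelled EV, with bars of 1 standard error; dashed lines mark 0.58 in either direction. CDH8 lies farthest right at 2.57 and ITGAX farthest left at -1.73, and no cadherin is coloured as lower.

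Sequence upstream of the start site was available in RefSeq (GRCh38.p14) for 29 of the 49 genes, and the 250 bases before each start were searched on both strands for TGANTCA (the AP-1 site bound by Fos and by Jun, which the study links to HDAC8), CACCTG (an E-box bound by the SNAI and ZEB repressors of cadherins), CATGTG (an M-box bound by MITF) and GGGCGG (a GC box bound by SP1). Of 35116 promoter windows of that length, 6.573% held TGANTCA, 17.49% held CACCTG, 9.417% held CATGTG and 42.64% held GGGCGG. None of the 4 motifs contains another. Among 10 windows of genes that were higher, 1 held TGANTCA, 0 held CACCTG, 0 held CATGTG and 3 held GGGCGG. Among 6 windows of genes that were lower, the numbers were 0, 2, 0 and 3. These windows came from ITGA10, ITGA6 and ITGB5 only, with more than 1 start for ITGA6 and for ITGB5. The 10 windows of higher genes came from ITGA1, ITGAV, ITGA4, ITGB8, CDH2, CDH8 and CDH19. Of these, ITGAV, CDH2 and CDH8 had more than 1 start. The lower genes ITGA3, ITGA9 and ITGAX and the higher gene ITGA7 had no window, so the numbers do not cover them. Windows of 3 genes are printed because these genes passed the test and no annotated exon of either strand lies in the window. ITGA6 is shown as the alpha chain with the highest level per length, ITGA1 as a higher alpha chain with a window that holds none of the 4 motifs, and both start sites of CDH2 as the cadherin with the highest level per length. Capitals mark a motif, read 5′ to 3′ on the strand of the gene.
ITGA6, chr2:172427086-172427335, + strand: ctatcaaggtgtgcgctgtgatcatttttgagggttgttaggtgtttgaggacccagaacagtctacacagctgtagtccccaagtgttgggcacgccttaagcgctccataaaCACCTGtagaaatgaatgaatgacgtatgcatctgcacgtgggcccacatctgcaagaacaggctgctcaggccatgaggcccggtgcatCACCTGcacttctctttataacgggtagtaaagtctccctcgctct
ITGA1, chr5:52787666-52787915, + strand: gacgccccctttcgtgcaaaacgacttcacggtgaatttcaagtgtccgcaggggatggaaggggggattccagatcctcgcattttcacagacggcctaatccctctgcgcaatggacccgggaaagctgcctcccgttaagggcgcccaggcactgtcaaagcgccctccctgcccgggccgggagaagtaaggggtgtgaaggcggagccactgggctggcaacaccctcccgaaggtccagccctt
CDH2, outer start, chr18:28177131-28177380, - strand: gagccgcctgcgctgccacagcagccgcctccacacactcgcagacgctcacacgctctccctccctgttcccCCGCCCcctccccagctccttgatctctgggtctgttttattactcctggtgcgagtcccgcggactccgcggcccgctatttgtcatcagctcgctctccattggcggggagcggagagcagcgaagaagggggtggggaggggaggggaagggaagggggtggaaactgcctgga
CDH2, inner start, chr18:28036642-28036891, - strand: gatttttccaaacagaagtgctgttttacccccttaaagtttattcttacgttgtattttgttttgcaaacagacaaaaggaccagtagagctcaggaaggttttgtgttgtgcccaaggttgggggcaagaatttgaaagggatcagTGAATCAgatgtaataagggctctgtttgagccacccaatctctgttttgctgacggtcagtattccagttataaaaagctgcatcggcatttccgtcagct
CACCTG stands 136 and 46 bases before the outer of the 2 RefSeq starts of ITGA6. The window before the inner start, of which 117 bases are annotated exon, held 0 CACCTG and 3 GGGCGG and is not printed. The outer CDH2 window holds a GC box (read as CCGCCC) 177 bases before its start and the inner one TGAATCA 102 bases before its start. A match is a match of letters and was not tested as a binding site.

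Among the chains that bind collagen, ITGA1 was higher and ITGA10 lower in the libraries labelled HDAC8. ITGA1 (ENSG00000213949, chromosome 5, 52787916 to 52959209, + strand), the alpha chain of a receptor for collagen IV, was at 11.5, 11.1 and 11.8 CPM in the EV libraries and at 17.99, 18.4 and 16.9 CPM in the HDAC8 libraries. The groups did not overlap, and the log2 fold change was 0.63 ± 0.095 (SE, edgeR adjusted p = 5.14e-04). PELO, a ribosome rescue gene that shares 2.69% of the exon bases of ITGA1 on the same strand, was at 18.6, 17.8 and 16.9 CPM in the EV libraries and 19.7, 19.9 and 15.3 CPM in the HDAC8 libraries, which overlapped. ITGA10 (ENSG00000143127, chromosome 1, 145891208 to 145910111, - strand), a collagen II receptor best known from cartilage, was at 8.59, 8.54 and 8.14 CPM and 4.82, 6.27 and 5.47 CPM in the same order. All HDAC8 libraries lay under all EV libraries, with a log2 fold change of -0.61 ± 0.16 (SE, edgeR adjusted p = 0.0138). Without EV replicate 1 the adjusted p of ITGA10 was 0.055, and without HDAC8 replicate 1 its log2 fold change was -0.53, under the fold limit. ITGA2, the collagen receptor chain of platelets and epithelia, was at 13.6, 17.3 and 16.1 CPM and 16.3, 14.9 and 15.6 CPM. Its groups overlapped, with a 95% interval of the log2 fold change of -0.24 to 0.23. ITGA11, a chain of fibroblasts, was low at 2.02 ± 0.795 CPM and 1.096 ± 0.4503 CPM (SD, n = 3), and its log2 fold change of -0.90 ± 0.43 (SE, edgeR adjusted p = 0.167) did not pass although the groups did not overlap.

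Of the laminin-binding chains, ITGA3 and ITGA6 were lower and ITGA7 was higher in the libraries labelled HDAC8. ITGA3 (ENSG00000005884, chromosome 17, 50055968 to 50090481, + strand), which pairs with beta 1 as a receptor for laminin of the basement membrane, was at 119, 119 and 130.2 CPM in the EV libraries and 55.1, 57.3 and 59.5 CPM in the HDAC8 libraries. The EV libraries were about 2.14-fold higher, with no overlap and a log2 fold change of -1.10 ± 0.059 (SE, edgeR adjusted p = 9.73e-08). ITGA6 (ENSG00000091409, chromosome 2, 172427354 to 172506459, + strand), the laminin chain of hemidesmosomes and of many stem cells, was at 417, 420.1 and 418 CPM and 310.1, 309 and 295 CPM. These groups were also apart, and the log2 fold change of -0.46 ± 0.041 (SE, edgeR adjusted p = 8.97e-06) was under the fold limit. ITGA7 (ENSG00000135424, chromosome 12, 55684568 to 55716404, - strand), the laminin chain of muscle, went the other way, from 22.3, 20.87 and 23.6 CPM to 28.5, 32.8 and 39.2 CPM. Its groups did not overlap, and its HDAC8 libraries ranged more widely than its EV libraries. The log2 fold change of ITGA7 was 0.59 ± 0.11 (SE, edgeR adjusted p = 0.00235). It fell under the fold limit without HDAC8 replicate 3 (0.45), without EV replicate 2 (0.54) or with no filter on low counts (0.5798), still past the adjusted p. BLOC1S1 shares 1.31% of the exon bases of ITGA7 on the opposite strand and was at 15.2, 15.2 and 14.4 CPM in the EV libraries and 18.8, 17.1 and 15.7 CPM in the HDAC8 libraries, without overlap (log2 fold change 0.21 ± 0.099 SE, edgeR adjusted p = 0.169). Its part in the ITGA7 values was not tested.

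**Figure D2:**
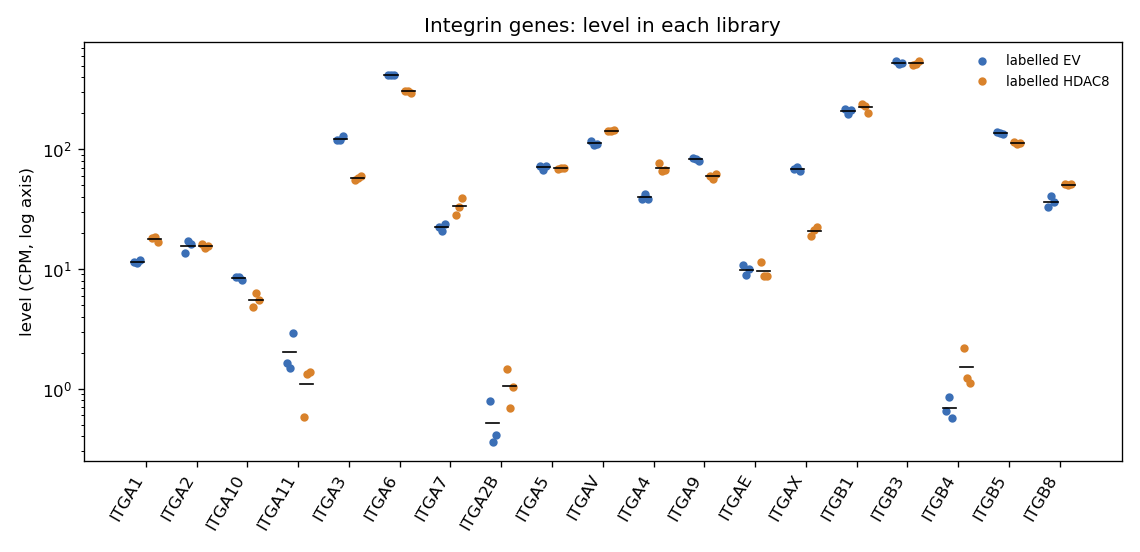
Level of the 19 tested integrin genes in each library, in CPM on a log axis, with a black line at the mean of the 3 libraries of a group. ITGA3 and ITGAX show the widest downward gaps, while the points of ITGB3 and ITGA5 lie on one another.

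Per kilobase of exon, the scale on which genes can be set side by side, the integrin genes fell into a steep order. ITGB3 came first, at 77.4 ± 1.93 CPM per kb in the EV libraries and 76.4 ± 2.78 in the HDAC8 libraries, and ITGA6 followed at 62.6 ± 0.247 and 45.6 ± 1.24 (SD, n = 3 each). ITGB5 was at 21.1 ± 0.394 and 17.3 ± 0.327 CPM per kb, and ITGB1 at 14.4 ± 0.709 and 15.4 ± 1.42. ITGA3 was next in the EV libraries at 12.5 ± 0.652 CPM per kb and was at 5.85 ± 0.224 in the HDAC8 libraries. ITGA9 (9.97 ± 0.286), ITGAX (9.71 ± 0.426) and ITGA5 (9.596 ± 0.357 CPM per kb) lay within their spread of one another in the EV libraries. In the HDAC8 libraries they parted, with ITGA5 at 9.43 ± 0.1100, ITGA9 at 7.21 ± 0.345 and ITGAX at 2.93 ± 0.257 CPM per kb. ITGAV was at 5.82 ± 0.255 and 7.401 ± 0.0912 CPM per kb and ITGA4 at 3.73 ± 0.178 and 6.58 ± 0.514. The same 10 genes led in the EV libraries when the length of the longest transcript was used, with some changes of place. On that length ITGA9 was at 10.5 ± 0.301 CPM per kb, apart from ITGAX at 14.7 ± 0.646 and ITGA5 at 14.2 ± 0.527. ITGB1 at 37.5 ± 1.84 CPM per kb then came above ITGB5 at 30.9 ± 0.578 (SD, n = 3 each). The shares and sums that follow also depend on the length used. In these units the laminin chains summed to 77.02, 77.3 and 78.5 CPM per kb in the EV libraries and 55.2, 55.7 and 54.6 CPM per kb in the HDAC8 libraries, with no overlap. ITGA6 alone gave 51.3% of the summed alpha level in the EV libraries and 48.3% in the HDAC8 libraries. ITGA3 gave 10.3% and 6.196% in the same order. The sum of all alpha chains was 122 CPM per kb in each of the EV libraries and 95.1, 94.05 and 93.97 CPM per kb in the HDAC8 libraries. These sums carry no test, since they rest on the same values as the single genes.

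Of the chains that bind RGD ligands, ITGAV was higher and ITGA5 did not pass. ITGAV (ENSG00000138448, chromosome 2, 186590010 to 186680901, + strand), the alpha V chain that binds vitronectin, osteopontin and latent TGF-beta, was at 118, 109 and 110.1 CPM in the EV libraries and 143, 142 and 145 CPM in the HDAC8 libraries. The HDAC8 libraries were all above the EV libraries, with a log2 fold change of 0.35 ± 0.050 (SE, edgeR adjusted p = 3.65e-04) that was under the fold limit. ITGA5, the fibronectin receptor chain, was at 72.5, 67.8 and 72.3 CPM and 68.9, 70.5 and 69.6 CPM. Its 95% interval of -0.15 to 0.096 on the log2 scale was narrow and included 0. ITGA2B, the platelet fibrinogen chain, was near the lower limit of testing at 0.519 ± 0.235 CPM and 1.06 ± 0.385 CPM (SD, n = 3), and its log2 fold change was 1.05 ± 0.48 (SE, edgeR adjusted p = 0.153).

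The related chains ITGA4 and ITGA9, which bind fibronectin, VCAM1, tenascin-C and osteopontin, moved in opposite directions. ITGA4 (ENSG00000115232, chromosome 2, 181457202 to 181538940, + strand), a chain of leukocytes and neural crest cells, was at 38.6, 41.9 and 38.7 CPM in the EV libraries and 76.4, 66.4 and 67.6 CPM in the HDAC8 libraries. It was the integrin gene with the largest rise past both thresholds, at 1.77-fold and a log2 fold change of 0.82 ± 0.072 (SE, edgeR adjusted p = 6.44e-06). CERKL, a ceramide kinase-like gene of the opposite strand, covers 26.4% of the exon bases of ITGA4. CERKL was at 5.11, 5.29 and 6.67 CPM in the EV libraries and 14.6, 8.74 and 7.07 CPM in the HDAC8 libraries. All HDAC8 libraries were above all EV libraries (log2 fold change 0.84 ± 0.24 SE, edgeR adjusted p = 0.0269), and HDAC8 replicate 1 was highest for both genes. Whether counting used the strand is not given in the sources used here, and the part of CERKL reads in the ITGA4 values was not tested. Without HDAC8 replicate 1 the ITGA4 log2 fold change was 0.75, still past both thresholds. ITGA9 (ENSG00000144668, chromosome 3, 37452115 to 37823507, + strand) was at 84.8, 82.4 and 80.03 CPM and 59.9, 56.6 and 62.3 CPM, without overlap and with a log2 fold change of -0.47 ± 0.058 (SE, edgeR adjusted p = 1.31e-04). Its antisense gene ITGA9-AS1, which covers 9.23% of its exon bases, had at most 46 counts in any library. The summed level of the pair was 13.9, 13.9 and 13.3 CPM per kb and 14.4, 13.1 and 13.9 CPM per kb, and these sums overlapped.

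ITGAX gave the largest difference of all integrin genes that passed. ITGAX (ENSG00000140678, chromosome 16, 31355134 to 31382999, + strand) encodes CD11c, an alpha chain known from dendritic cells and macrophages. It was at 68.9, 71.6 and 65.6 CPM in the EV libraries and 18.8, 21.02 and 22.4 CPM in the HDAC8 libraries, 3.32-fold higher in the EV libraries. The 2 ranges were far apart, and the log2 fold change was -1.73 ± 0.078 (SE, edgeR adjusted p = 2.23e-08). Its known partner chain ITGB2 was close to the floor, with 3, 7 and 14 counts in the EV libraries and 49, 0 and 3 in the HDAC8 libraries. Of the other ITGB2 partners, ITGAL had at most 2 counts in any library, ITGAM at most 1, and ITGAD 0 in all 6 libraries. Reads of ITGAX could be shared with ITGAM and ITGAD, its close relatives on chromosome 16. The leukocyte gene PTPRC (CD45) had 1 count in EV replicate 1 and 0 elsewhere, CD3E had 0 in all libraries and CD14 had at most 2. CD68, which melanoma cells also express, was at 575, 596 and 673 and 803, 572 and 556 counts and did not pass (log2 fold change -0.028 ± 0.082 SE, edgeR adjusted p = 0.854). Over the 11 leukocyte and platelet markers, 4 were tested, 0 passed and 3 were at 0 in every library, with a summed level of 32.5 to 34.1 CPM in the EV libraries and 30.7 to 41.05 CPM in the HDAC8 libraries. ITGAE, the alpha E chain that binds E-cadherin, was at 9.896 ± 1.01 CPM and 9.62 ± 1.52 CPM (SD, n = 3), with a log2 fold change of -0.035 ± 0.15 (SE, edgeR adjusted p = 0.899).

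None of the 5 tested beta chains was past both thresholds. ITGB3, the partner of alpha V in melanoma, was at 542, 516 and 528 CPM in the EV libraries and 506, 518 and 543 CPM in the HDAC8 libraries. The groups overlapped, and the 95% interval of the log2 fold change, -0.11 to 0.077, bounded any difference closely. A same-strand gene without a symbol (ENSG00000259753) shares 33.2% of the exon bases of ITGB3, and was at 4.41, 1.36 and 3.499 CPM and 1.22, 0.000 and 1.08 CPM (log2 fold change -1.96 ± 0.72 SE, edgeR adjusted p = 0.0725). Its part in the ITGB3 values was not tested. ITGB1, the chain shared by most matrix receptors, was at 218, 199 and 215 CPM and 241, 230.1 and 201 CPM. It overlapped between groups, with a log2 fold change of 0.090 ± 0.066 (SE, edgeR adjusted p = 0.384), and passed only without HDAC8 replicate 3, the lowest library of its group (0.15, adjusted p = 0.0312 by edgeR).

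Both of the other common beta chains passed the test with small differences. ITGB5 (ENSG00000082781, chromosome 3, 124761948 to 124901418, - strand), a vitronectin receptor chain, was at 140.1, 136 and 135 CPM and 115, 110.4 and 113 CPM, all HDAC8 libraries lower, and its log2 fold change was -0.29 ± 0.047 (SE, edgeR adjusted p = 9.52e-04). ITGB8 (ENSG00000105855, chromosome 7, 20330702 to 20415754, + strand), which with alpha V binds and activates latent TGF-beta, was at 33.1, 40.3 and 36.3 CPM and 51.3, 50.2 and 50.8 CPM. Its HDAC8 libraries lay close together and above all EV libraries, with a log2 fold change of 0.47 ± 0.076 (SE, edgeR adjusted p = 8.14e-04). ITGB4, the partner of alpha 6 in hemidesmosomes, was scarce at 0.693 ± 0.149 CPM and 1.51 ± 0.578 CPM (SD, n = 3). Its log2 fold change of 1.13 ± 0.42 (SE, edgeR adjusted p = 0.0753) did not pass, although the groups did not overlap, and it passed when genes needed at least 10 counts in every library (adjusted p = 0.0363). Without HDAC8 replicate 1, its highest library, the log2 fold change of ITGB4 was 0.76 (edgeR adjusted p = 0.327). The beta chains summed to 118, 113 and 115 CPM per kb in the EV libraries and 112, 112 and 114 CPM per kb in the HDAC8 libraries, ranges that overlapped.

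Integrins act as pairs, so known pairs were read together. Of 24 known alpha and beta pairs, 14 had both chains at a mean of at least 1 CPM in both groups, comprising 11 pairs of ITGB1 and 4 of ITGAV (ITGAV with ITGB1 counts in both). At the adjusted p alone, the alpha chain was higher in 7 of these pairs and lower in 4. The 7 were ITGA1, ITGA4, ITGA7 and ITGAV with ITGB1, and ITGAV with ITGB3, ITGB5 and ITGB8. The 4 were ITGA3, ITGA6, ITGA9 and ITGA10 with ITGB1. ITGAV counts 4 times among the 7, so the pairs are not separate results. Among the 14 tested alpha genes, 4 passed as higher and 5 as lower, against 11.1% and 11.7% of all genes tested. Both chains were higher in 1 pair, ITGAV with ITGB8. In ITGAV with ITGB5 the chains went opposite ways. The less abundant chain per length was the alpha chain in 10 of the 11 ITGB1 pairs in either group. The exception was ITGA6, whose level per length was above that of ITGB1 in both groups. Only transcripts were measured, and receptors at the surface were not.

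**Figure D3:**
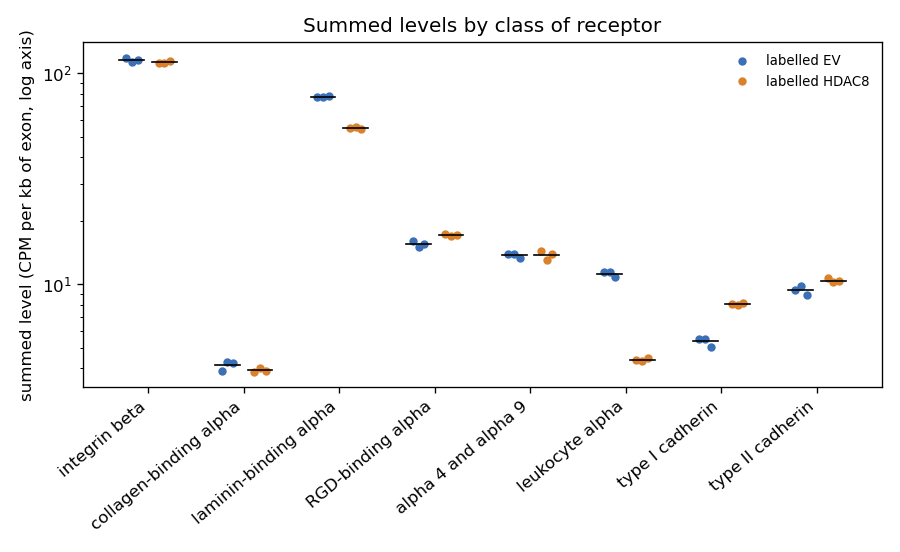
Level summed over the genes of each receptor class in each library, in CPM per kb of exon on a log axis, with a line at the mean of each group. Laminin-binding and leukocyte alpha chains are lower in all 3 HDAC8 libraries. RGD-binding alpha chains, type I cadherins and type II cadherins are higher in all 3, while the beta chains overlap.

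Among the cadherins, those with clear levels in these cells were N-cadherin, CDH19 and CDH24. CDH2 (ENSG00000170558, chromosome 18, 27932879 to 28177946, - strand), N-cadherin, was at 44.6, 45.9 and 42.5 CPM in the EV libraries and 67.3, 66.4 and 68.3 CPM in the HDAC8 libraries. The HDAC8 libraries were all higher, at 1.52-fold and a log2 fold change of 0.60 ± 0.058 (SE, edgeR adjusted p = 1.68e-05). Without EV replicate 3 that value was 0.57, just under the fold limit, and CDH2 still passed the adjusted p. CDH19 (ENSG00000071991, chromosome 18, 66501083 to 66604138, - strand), a type II cadherin of Schwann cell precursors and melanocytic cells, was at 31.99, 31.5 and 30.8 CPM and 42.8, 39.7 and 38.02 CPM, again without overlap, and its log2 fold change of 0.35 ± 0.070 (SE, edgeR adjusted p = 0.00339) was under the fold limit. CDH24, another type II cadherin, was at 17.5, 18.97 and 15.8 CPM and 15.2, 15.3 and 16.7 CPM. Its groups overlapped, with a 95% interval of -0.37 to 0.071 on the log2 scale.

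CDH8 (ENSG00000150394, chromosome 16, 61647242 to 62037035, - strand), a type II cadherin of neurons, had the largest log2 fold change of the tested members, from a very low base. It had 6, 7 and 9 counts in the EV libraries and 42, 45 and 51 in the HDAC8 libraries, that is 0.279, 0.316 and 0.366 CPM and 1.43, 2.22 and 2.199 CPM. The groups were far apart, and the log2 fold change was 2.57 ± 0.42 (SE, edgeR adjusted p = 8.82e-04), a 5.96-fold difference with a 95% interval of 1.66 to 3.49 on the log2 scale. CDH8 met the count filter through the HDAC8 libraries only and was not tested where 10 counts were required in every library. The remaining tested cadherins did not pass. CDH4 (R-cadherin) was at 0.542 ± 0.124 CPM and 0.562 ± 0.259 CPM, CDH7 at 1.499 ± 0.219 and 1.56 ± 0.518, and CDH23, a cadherin of the hair cells of the inner ear, at 0.689 ± 0.1099 and 0.795 ± 0.216 (SD, n = 3 each).

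**Figure D4:**
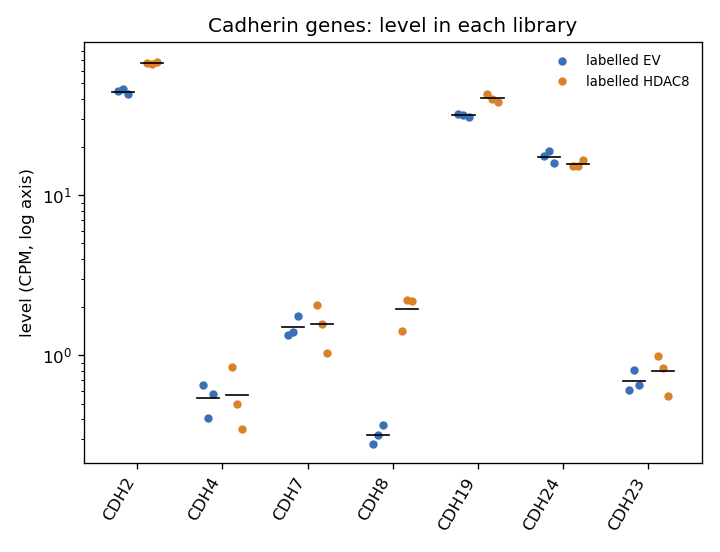
Level of the 7 tested cadherin genes in each library, in CPM on a log axis, with a line at the mean of each group. CDH2, CDH8 and CDH19 have all HDAC8 libraries above all EV libraries, and CDH4, CDH7, CDH23 and CDH24 overlap.

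Per length, type I cadherins summed to 5.48, 5.52 and 5.06 CPM per kb in the EV libraries and 8.05, 7.99 and 8.11 CPM per kb in the HDAC8 libraries, almost all of it CDH2. Type II cadherins summed to 9.43, 9.85 and 8.88 CPM per kb and 10.7, 10.2 and 10.4 CPM per kb. CDH2 made up 34.8% of the cadherin level in the EV libraries and 42.2% in the HDAC8 libraries, and CDH24 31.2% and 22.5%. CDH2 ranked 10th of the 49 genes per length in the EV libraries at 5.17 ± 0.201 CPM per kb, followed by CDH24 at 4.64 ± 0.425 and CDH19 at 4.58 ± 0.08397 CPM per kb (SD, n = 3 each), which lay within their spread of each other. In the HDAC8 libraries CDH2 was at 7.84 ± 0.111, CDH19 at 5.85 ± 0.351 and CDH24 at 4.19 ± 0.227 CPM per kb. By the length of the longest transcript, CDH2 was at 11.05 ± 0.430 CPM per kb in the EV libraries. On that length CDH19 was at 4.995 ± 0.0915 and CDH24 at 4.90 ± 0.449 CPM per kb in the EV libraries. The shares, the class sums and how these sums compare thus depend on the length used.

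The 23 genes not tested were 7 integrins and 16 cadherins. E-cadherin, the cadherin of epidermis and melanocytes, was among them, with CDH1 at 1, 4 and 0 counts in the EV libraries and 0, 0 and 0 in the HDAC8 libraries, at or near the floor in both. P-cadherin was as scarce, with CDH3 at 5, 1 and 0 counts in the EV libraries and 0, 8 and 6 in the HDAC8 libraries. VE-cadherin of endothelium (CDH5) reached at most 1 count and H-cadherin (CDH13) at most 12. ITGAD, CDH6, CDH10, CDH11, CDH16, CDH20 and CDH22 had 0 counts in all 6 libraries. CDH18, a neuronal cadherin, had 0, 2 and 5 counts in the EV libraries and 10, 7 and 7 in the HDAC8 libraries, which did not overlap, and CDH12, another, had 0, 4 and 0 in the EV libraries and 12, 2 and 14 in the HDAC8 libraries. Neither was kept by the filter on low counts, and neither passed in the fit without it (edgeR adjusted p = 0.41 and 0.137). ITGA8 had 1, 12 and 1 counts in the EV libraries and 64, 0 and 7 in the HDAC8 libraries. The 64 came from HDAC8 replicate 1, the library that also held most counts of ITGB2 and ERG. In the fit without a filter, ITGA8 alone of the genes otherwise untested was past both thresholds (log2 fold change 2.00 ± 0.68 SE, edgeR adjusted p = 0.0270). Its values in the other HDAC8 libraries lay within those of the EV libraries or below. ITGB6 had at most 8 counts and ITGB7, CDH15, CDH9, CDH17 and CDH26 at most 15.

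The partners of these receptors were read from 6 lists of 173 genes, of which 132 were tested. Past both thresholds 20 were higher and 6 were lower, with a median log2 fold change of 0.056, against 4.07% higher and 3.45% lower over all genes tested. Of the 20, 4 met the filter on low counts through the HDAC8 libraries only, so only a rise could be called for them. The adaptors that tie integrins to actin mostly lay within the fold limit, with 2 of 38 tested higher and 1 lower, near the share over all genes, and a median of 0.061. TNS1 (tensin 1) was at 241, 230.1 and 245 CPM in the EV libraries and 429.5, 435 and 461 CPM in the HDAC8 libraries (log2 fold change 0.89 ± 0.047 SE, edgeR adjusted p = 8.38e-08), and TNS2 (tensin 2) went the other way, at 104, 104 and 112 CPM and 60.03, 61.4 and 64.7 CPM (log2 fold change -0.78 ± 0.058 SE, edgeR adjusted p = 1.58e-06). The kinase FYN was at 52.6, 57.2 and 56.4 CPM and 95.8, 92.7 and 94.8 CPM, with a log2 fold change of 0.77 ± 0.057 (SE, edgeR adjusted p = 1.50e-06). Talin, which activates integrins, differed little, with TLN1 at 342 and 378 CPM (log2 fold change 0.14 ± 0.045 SE, edgeR adjusted p = 0.0385). ILK was at 71.6 and 72.2 CPM and did not pass (log2 fold change 0.013 ± 0.056 SE, edgeR adjusted p = 0.901).

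Of 33 tested matrix ligands of integrins, 8 were higher and 1 lower past both thresholds, against 4.07% and 3.45% of all genes tested. The median was -0.12, and 2 of the 8 (TGFBI and EDIL3) met the filter through the HDAC8 libraries only. At the adjusted p alone 8 were higher and 7 lower, against 11.1% and 11.7% of all genes tested. The 1 gene lower past both thresholds was FN1, fibronectin, the main ligand of ITGA5 with ITGB1. FN1 was at 7533, 7379 and 7544 CPM in the EV libraries and 2828, 2909 and 2848 CPM in the HDAC8 libraries, with no overlap and a log2 fold change of -1.39 ± 0.032 (SE, edgeR adjusted p = 1.41e-10). It dominated the list, whose summed level was 9874 to 10134 CPM in the EV libraries and 5084 to 5248 CPM in the HDAC8 libraries. SPP1, osteopontin, a ligand of ITGAV, ITGA4 and ITGA9, was at 24.6, 28.9 and 26.2 CPM and 72.4, 68.8 and 66.3 CPM, all HDAC8 libraries higher (log2 fold change 1.38 ± 0.074 SE, edgeR adjusted p = 9.51e-08). COL4A2, a chain of basement membrane collagen, was at 8.68, 8.94 and 8.22 CPM and 16.9, 18.7 and 15.7 CPM (log2 fold change 0.99 ± 0.11 SE, edgeR adjusted p = 5.19e-05). TGFBI, an RGD protein, was scarce, at 0.882, 0.407 and 0.977 CPM and 1.87, 1.78 and 2.07 CPM (log2 fold change 1.32 ± 0.40 SE, edgeR adjusted p = 0.0319). The laminin chain LAMB1, a part of the ligands of ITGA3 and ITGA6, was at 455 and 429 CPM and did not pass (log2 fold change -0.085 ± 0.041 SE, edgeR adjusted p = 0.1695). Among counter-receptors and tetraspanins, 1 of 20 tested was past both thresholds, as higher, against 4.07% of all genes tested. This was PLAUR, the urokinase receptor, at 14.3, 12.2 and 14.97 CPM and 25.4, 24.3 and 25.5 CPM (log2 fold change 0.86 ± 0.096 SE, edgeR adjusted p = 5.31e-05).

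On the cadherin side, 2 of 19 tested catenins and partners were higher and 1 was lower past both thresholds, with a median of 0.11. Over all genes tested 4.07% were higher and 3.45% lower. LIMA1, an actin binder at alpha-catenin, was at 122, 117 and 113 CPM in the EV libraries and 219, 214 and 205 CPM in the HDAC8 libraries (log2 fold change 0.86 ± 0.050 SE, edgeR adjusted p = 1.85e-07). NECTIN2, a nectin of adherens junctions, was at 26.04, 22.3 and 27.4 CPM and 38.8, 40.2 and 40.4 CPM (log2 fold change 0.66 ± 0.084 SE, edgeR adjusted p = 1.54e-04). Beta-catenin itself passed only the adjusted p, with CTNNB1 at 959 and 1089 CPM and a log2 fold change of 0.18 ± 0.045 (SE, edgeR adjusted p = 0.0113). Of the desmosome list only 4 of 12 genes were tested, and 2 were lower past both thresholds, against 3.45% of all genes tested. DSP, desmoplakin, was at 7.799, 9.397 and 9.15 CPM and 1.66, 1.43 and 1.38 CPM (log2 fold change -2.55 ± 0.20 SE, edgeR adjusted p = 2.32e-06), and the desmosomal cadherin DSC2 was at 6.87, 7.14 and 5.57 CPM and 4.21, 4.59 and 3.88 CPM (log2 fold change -0.63 ± 0.18 SE, edgeR adjusted p = 0.02697).

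The wider cadherin superfamily, which the symbol rule leaves out, had 7 of 18 tested genes higher and 1 lower past both thresholds. Over all genes tested these shares were 4.07% and 3.45%. The median of the list was 0.36. Of the 7, DCHS2 and PCDH10 met the filter through the HDAC8 libraries only. FAT4, a giant cadherin receptor of planar polarity, was at 1.996, 1.49 and 1.87 CPM in the EV libraries and 12.2, 10.4 and 13.6 CPM in the HDAC8 libraries. The groups were far apart (log2 fold change 2.75 ± 0.19 SE, edgeR adjusted p = 7.06e-07). DCHS2, of the Dachsous family that binds FAT proteins, was at 0.371, 0.949 and 0.366 CPM and 2.21, 2.02 and 2.33 CPM, with a log2 fold change of 1.96 ± 0.43 (SE, edgeR adjusted p = 0.00623). CLSTN3, a calsyntenin of synapses, was at 13.2, 13.3 and 11.5 CPM and 36.9, 32.2 and 37.98 CPM, with a log2 fold change of 1.497 ± 0.095 (SE, edgeR adjusted p = 4.29e-07). PCDH1, protocadherin 1, was the 1 lower gene, at 15.7, 13.9 and 16.8 CPM and 6.25, 7.16 and 7.501 CPM (log2 fold change -1.15 ± 0.13 SE, edgeR adjusted p = 4.49e-05).

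**Figure D5:**
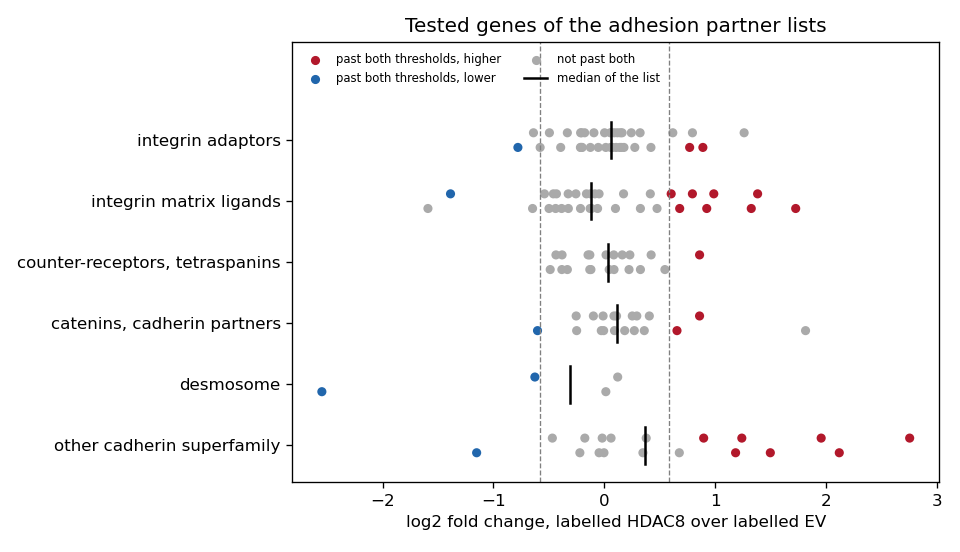
Log2 fold change of the 132 tested genes of the 6 partner lists, labelled HDAC8 over labelled EV, 1 point per gene, with the median of each list as a black bar and dashed lines at 0.58 in either direction. Points past both thresholds are coloured, 20 higher and 6 lower, and 7 of the higher ones are of the wider cadherin superfamily.

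Other cell types were sought through markers beside these results. Of 8 keratinocyte markers 1 was tested (KRT10) and 2 were at 0 in all libraries, and the list summed to 8.496 to 11.02 CPM in the EV libraries and 6.47 to 8.83 CPM in the HDAC8 libraries. Of 8 endothelial markers 2 were tested, 0 passed, and the sums were 3.34 to 4.88 CPM and 3.84 to 7.61 CPM. Of 8 fibroblast markers 5 were tested, and the one that passed was LUM, lumican, at 808, 839 and 855 counts and 1410, 993 and 1212 counts (log2 fold change 0.44 ± 0.067 SE, edgeR adjusted p = 6.15e-04), under the fold limit. Of 10 tested melanocyte markers, 1 was higher and 1 lower past both thresholds, against 4.07% and 3.45% of all genes tested. At the adjusted p alone 4 were higher and 3 lower, against 11.1% and 11.7% of all genes tested. The gene higher past both thresholds, TYRP1, met the filter on low counts through the HDAC8 libraries only. Only a rise could thus be called for TYRP1. DCT, an enzyme of melanin synthesis, was at 246, 228 and 226 CPM in the EV libraries and 66.4, 67.9 and 70.5 CPM in the HDAC8 libraries (log2 fold change -1.77 ± 0.053 SE, edgeR adjusted p = 1.13e-09), and TYRP1, a related enzyme, had 5, 12 and 9 counts and 46, 31 and 19 counts. Their part in the adhesion genes was not tested.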

How the data were processed

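SK-MEL-28 RNA-seq libraries (3 labelled EV, 3 labelled HDAC8) were analysed from 1 deposited table. Per the study's methods, the authors trimmed reads with Trimmomatic, aligned them with STAR and estimated transcript abundance with RSEM. The labels' processing notes name GRCh38. The annotation release and the use of strand are not given in the sources used here. The deposited values are expected counts per Ensembl gene without normalization, and 5351 to 5685 genes per library had a fractional count. The labels name ribosomal depletion and a directional kit, whereas the methods name another kit. A second deposited table of log2 fold changes, p-values and group values is the authors' own comparison and was not used.

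Expected counts were rounded, and 16195 of 60504 genes were kept by filterByExpr, normalized by TMM and tested with edgeR 4.0.16 (quasi-likelihood, R 4.3.3) with Benjamini-Hochberg adjustment over all genes tested. Standard errors and 95% intervals come from the same fit. CPM use TMM library sizes. Levels per kb use the union of exons in GENCODE 44. DESeq2 1.42.0, other filters, another normalization, a replicate term and leaving out each library were alternatives. The fit was tested on simulated data. All 49 genes are accounted for: those past the adjusted p or at a mean of 10 CPM are named with every library, other tested genes with means, and up to 3 genes per direction and partner list at a mean of 1 CPM or more. EDIL3, PCDH10, LAMB1, TLN1, ILK, CTNNB1 and other genes outside that rule were chosen after their values were seen. The genes and lists were chosen with earlier results of these data known. WM164 libraries were not analysed here, and 2 genes of the partner and marker lists are not reported here.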

Additional observations from a re-analysis of the deposited data

How the results depend on the processing

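Over the tested genes and their alternatives, 269 values kept their direction and their side of the adjusted p. ITGA10 lost its call without EV replicate 1, and ITGB1 and ITGB4 gained one, as given with these genes. The sign turned for 4 genes that did not pass in any setting. ITGA2 was at 0.00083 under upper-quartile normalization and between -0.10 and 0.066 over the fits that leave out 1 library, ITGAE between -0.18 and 0.033, CDH4 between -0.38 and 0.32, and CDH7 between -0.21 and 0.28. Without the fold limit the integrins passed as 5 higher and 6 lower and the partner lists as 34 higher and 26 lower. With a log2 limit of 1 there were 0 integrins and 1 cadherin higher (CDH8) and 9 partners higher and 3 lower. With at least 10 counts in every library 1 cadherin was higher, since CDH8 was then not tested. Leaving out 1 library gave between 1 and 2 cadherins higher, between 2 and 3 integrins higher and between 2 and 3 lower, and the lone value of 1 cadherin came without EV replicate 3. Replicate numbers did not pair the libraries (correlations of -0.050, -0.12 and -0.068 between same-numbered libraries, and 0 libraries closest to their own number). With a replicate block the calls were 3 integrins higher and 3 lower, 2 cadherins higher, and 18 partners higher and 6 lower. Upper-quartile scaling and DESeq2 gave the same numbers of integrins and cadherins. With no filter on low counts the integrins higher were again 3, but only 2 of them shared with the filtered fit, since ITGA7 fell just under the fold limit and ITGA8, carried by HDAC8 replicate 1, passed. Of the other untested genes, 15 with any count did not pass in that fit, and whether greater depth would change this was not tested.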
